A study of Homo sapiens with 6 samples.

Results

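PIP5K1A and CERS5 are 2 human genes for lipid enzymes whose RNA carried long series of DHX9 peaks. Their members here are the peak regions that overlap PIP5K1A on the plus strand of chromosome 1 (151170425 to 151222012) or CERS5 on the minus strand of chromosome 12 (50523086 to 50561288), in the human assembly hg19. There were 164 such peaks among 28449 in both lists together. PIP5K1A had 105 of them and CERS5 had 59. Both genes were selected on the deposited peak lists themselves, for their many peaks. Peak number, crowding, position and agreement of the antibodies are therefore given as a description, without a test.

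The study mapped RNA sites of DHX9 in HEK293 cells, an established line from human embryonic kidney, by FLASH. This is a cross-linking method: irradiation with ultraviolet light bonds a protein to RNA in contact with it, an antibody captures that protein, and the fragments it carries are sequenced. The groups were the DHX9 antibodies DHX9-Rb and DHX9-mAb and a control immunoglobulin, IgG-Rb, each with 2 biological replicates of that line. The values are 1 list of peak positions for each DHX9 antibody, made from both of its replicates, with no height or p-value per peak. Read depth is thus unknown, no replicate spread can stand beside a number, and no IgG-Rb values were used here. Per the labels, barcoded IgG and DHX9 material was combined before the RNA was isolated, so the antibodies were not handled fully apart. A peak says where RNA was recovered above the peak caller's threshold. The amount of PIP5K1A and CERS5 RNA is not in these files, so more binding and more RNA cannot be told apart.

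DHX9, or RNA helicase A, opens double-stranded RNA. Such RNA often forms in introns, where inverted copies of the Alu repeat can pair with each other. PIP5K1A encodes a kinase that adds a phosphate to phosphatidylinositol phosphate and so makes PIP2, a membrane lipid that anchors actin regulators and is the substrate of phospholipase C. CERS5 encodes a ceramide synthase of the endoplasmic reticulum, which joins a fatty acid, preferably palmitate, to a sphingoid base. The enzymes act in separate pathways, the phosphoinositides and the sphingolipids.

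DHX9 peaks were dense in the 5′ part of both genes and sparse or lacking in the 3′ part. PIP5K1A carried 71 DHX9-Rb and 34 DHX9-mAb peaks, or 13.8 and 6.59 peaks per 10 kb of the 51.6 kb gene. CERS5 carried 39 and 20, or 10.2 and 5.24 per 10 kb of 38.2 kb. Per length of the whole gene, PIP5K1A had 1.35 times the density of CERS5 with DHX9-Rb and 1.26 times with DHX9-mAb. Over the stretch from the first to the last peak of each list, the order held with DHX9-Rb (18.6 and 14.8 peaks per 10 kb, a ratio of 1.26) and turned round with DHX9-mAb (12.4 and 16 per 10 kb, a ratio of 0.777). No replicate error is available to judge these ratios.

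The peaks covered a large part of each gene. DHX9-Rb peaks covered 18508 nt, or 35.9%, of PIP5K1A, and DHX9-mAb peaks covered 8406 nt, or 16.3%. In CERS5 the DHX9-Rb peaks covered 10902 nt, or 28.5%, and the DHX9-mAb peaks 5168 nt, or 13.5%. None of the 164 peaks crossed an end of its gene interval. Neither list had a peak on the opposite strand within either interval.

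**Figure D1:**
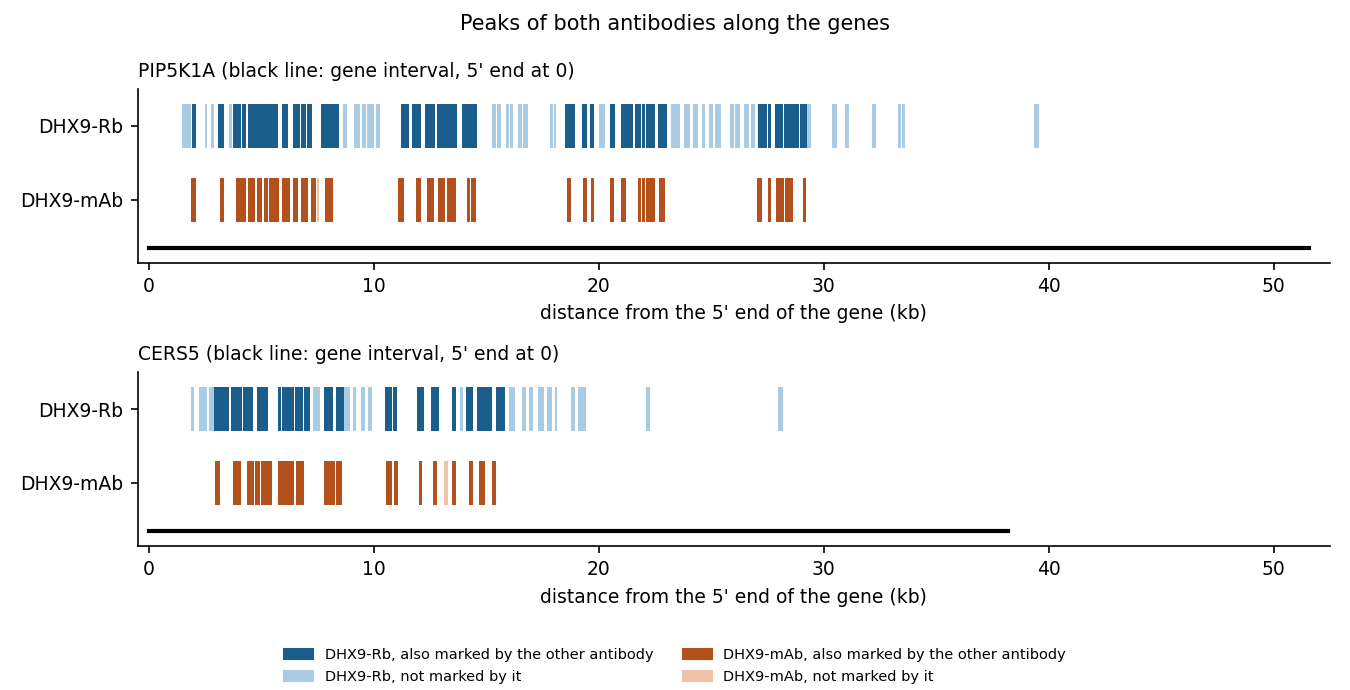
Peaks of DHX9-Rb (upper row) and DHX9-mAb (lower row) drawn to scale along PIP5K1A and CERS5, with distance in kb from the 5′ end of each gene interval, which the black line marks. Dark bars are peaks also marked by the other antibody and pale bars are peaks that it did not mark; both rows thin out well before the 3′ end, and the dark bars lie in blocks.

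The peaks began shortly after the 5′ end of each gene. In PIP5K1A the first DHX9-Rb peak (151171871 to 151172073) started 1.45 kb from the 5′ end, and the first DHX9-mAb peak (151172304 to 151172494) started at 1.88 kb. In CERS5 the first DHX9-Rb peak (50559279 to 50559435) started at 1.85 kb and the first DHX9-mAb peak (50558144 to 50558351) at 2.94 kb. In both genes the DHX9-Rb series thus reached further upstream.

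It also reached further downstream. The last DHX9-Rb peak of PIP5K1A (151209772 to 151210016) ended at 39.6 kb, and the last DHX9-mAb peak (151199500 to 151199655) ended at 29.2 kb. In CERS5 the last DHX9-Rb peak (50533107 to 50533309) ended at 28.2 kb and the last DHX9-mAb peak (50545852 to 50546050) at 15.4 kb. Beyond the last DHX9-mAb peak, DHX9-Rb had 7 more peaks in PIP5K1A and 10 in CERS5.

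Each gene was divided into 10 equal segments, counted from the 5′ end. The DHX9-Rb peaks of PIP5K1A numbered 10, 13, 9, 12, 11 and 11 in segments 1 to 6, then 4 and 1, and 0 in the last 2. Its DHX9-mAb peaks numbered 5, 8, 7, 4, 5 and 5 in segments 1 to 6, with 0 in the other 4. The DHX9-Rb peaks thus stayed between 9 and 13 per segment over segments 1 to 6 and then thinned out, and the DHX9-mAb peaks stopped there. In CERS5 the DHX9-Rb peaks numbered 4, 9, 8, 7 and 8 in segments 1 to 5, then 2, 0 and 1, and 0 in the last 2. The DHX9-mAb peaks numbered 1, 7, 5, 6 and 1 in segments 1 to 5 and 0 in the other 5. With DHX9-mAb, 18 of the 20 CERS5 peaks thus lay in segments 2 to 4, while the DHX9-Rb peaks ran on at about the same number into segment 5.

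The median midpoint of a peak lay at 32.0% of PIP5K1A with DHX9-Rb (interquartile range 16.5 to 48.1) and at 25.6% with DHX9-mAb (12.8 to 41.9). In CERS5 it lay at 27.9% with DHX9-Rb (16.8 to 41.6) and at 21.8% with DHX9-mAb (15.0 to 33.6). Between the 5′ end and the middle of the gene lay 55 of 71 DHX9-Rb and 29 of 34 DHX9-mAb peaks in PIP5K1A, and 36 of 39 DHX9-Rb and all 20 DHX9-mAb peaks in CERS5.

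**Figure D2:**
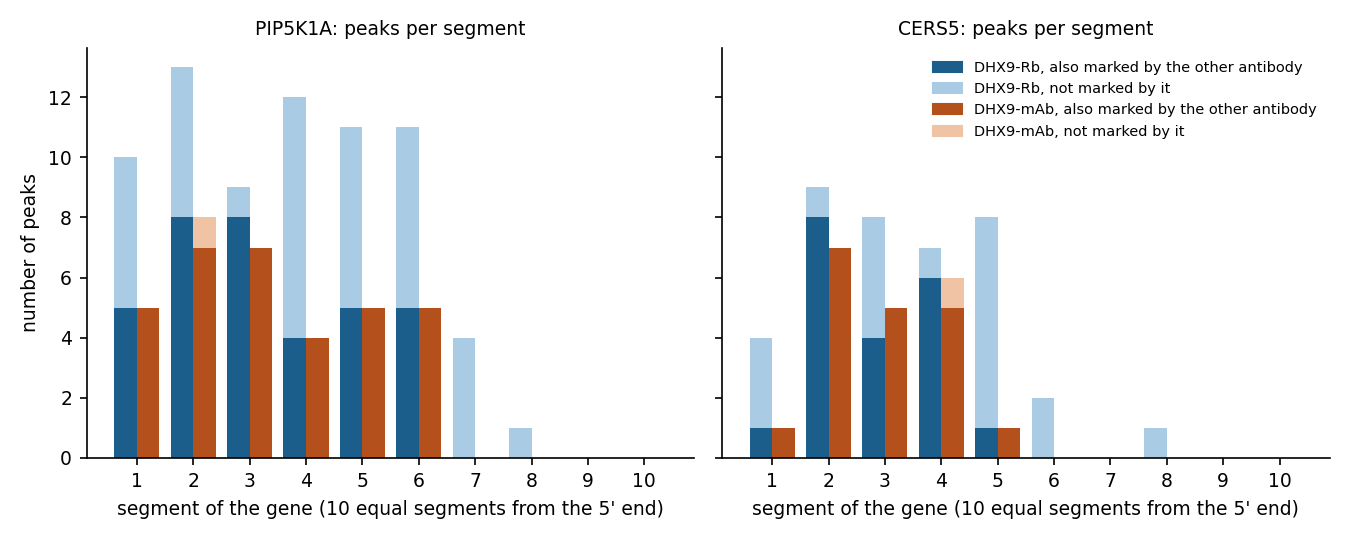
Number of peaks in each of 10 equal segments of PIP5K1A and CERS5, counted from the 5′ end, for DHX9-Rb (left bar of each pair) and DHX9-mAb (right bar), split into peaks also marked by the other antibody (dark) and not marked by it (pale). PIP5K1A keeps 9 to 13 DHX9-Rb peaks per segment up to segment 6, and DHX9-mAb has 0 from segment 7 on in PIP5K1A and from segment 6 on in CERS5.

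Both genes have one long intron, which comes first. In the GENCODE 29 basic annotation of GRCh38, the first intron of PIP5K1A is 25.2 kb long in all 4 transcripts, and the next longest is 4.35 kb. That intron ends 26.3 kb from the 5′ end of the annotated gene. The first intron of CERS5 is 22.1 or 23.0 kb long in its 2 transcripts, the next longest is 3.85 kb, and it ends at 22.6 or 23.5 kb. The annotated gene length is 51588 nt for PIP5K1A, the same as that of the hg19 interval. It is 38228 nt for CERS5, against 38203 nt in hg19. These lengths come from another assembly than the peaks. No position was carried over, and no peak was assigned to an exon or an intron. Taken as distances alone, the PIP5K1A series reached past 26.3 kb with both antibodies. It ended at 29.2 kb with DHX9-mAb and at 39.6 kb with DHX9-Rb. The CERS5 series ended at 15.4 kb with DHX9-mAb and at 28.2 kb with DHX9-Rb. Most peaks lay nearer the 5′ end. In PIP5K1A 55 of 71 DHX9-Rb and 29 of 34 DHX9-mAb peaks had their midpoint in the first 25.8 kb. In CERS5 36 of 39 DHX9-Rb and all 20 DHX9-mAb peaks had it in the first 19.1 kb.

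Neighbouring peaks lay close together. In PIP5K1A the median gap from one DHX9-Rb peak to the next was 136 nt (interquartile range 48.5 to 226, 70 gaps), and in CERS5 it was 152 nt (99.2 to 222, 38 gaps). Over the whole DHX9-Rb list the median same-strand gap was 517 nt. With DHX9-mAb the median gap was 182 nt in PIP5K1A (106 to 517, 33 gaps) and 246 nt in CERS5 (72.5 to 541, 19 gaps), against 1291 nt over that list. The median gaps in these genes were thus shorter than those of the lists, though both genes also had single gaps above the list medians, and the quartile ranges of the genes overlapped each other.

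Gaps under 1 kb made up 97.1% of the DHX9-Rb gaps in PIP5K1A and 94.7% in CERS5, against 61.4% over the list. For DHX9-mAb they made up 87.9% in PIP5K1A and 94.7% in CERS5, against 47.2%. The closest DHX9-Rb spacing, under 100 nt, was found in 31 of 70 gaps in PIP5K1A (44.3%) and 10 of 38 in CERS5 (26.3%), against 18.6% of the list. With DHX9-mAb the order of the genes was the reverse, with 8 of 33 such gaps in PIP5K1A (24.2%) and 6 of 19 in CERS5 (31.6%), against 12.1% of the list. The genes were chosen for many peaks, which makes short gaps likely by itself.

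**Figure D3:**
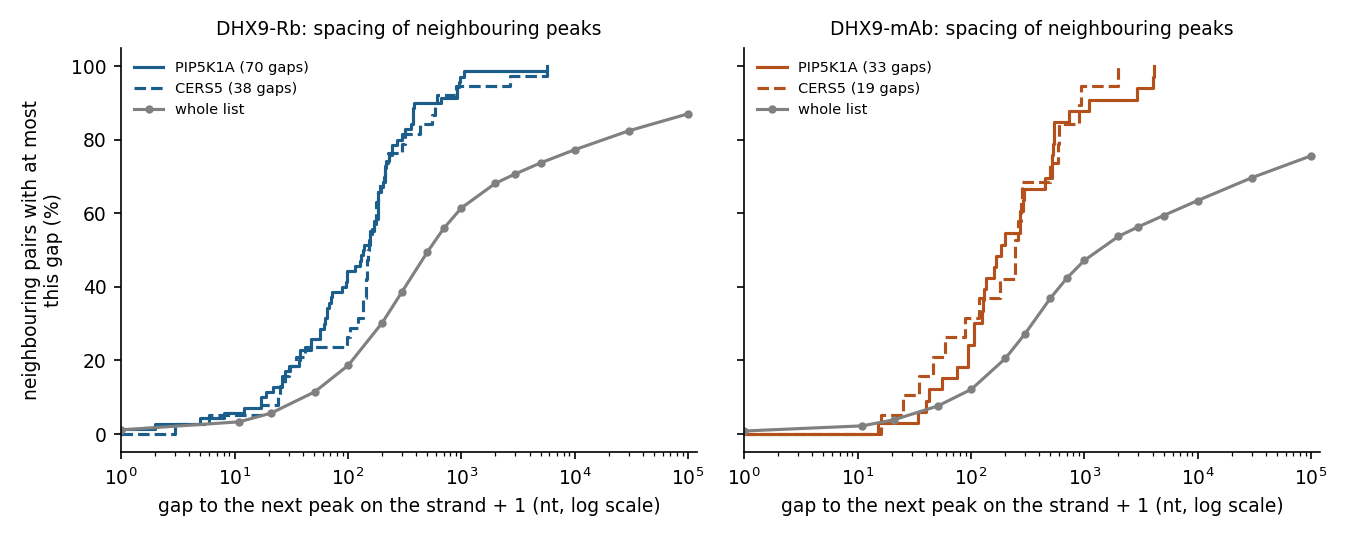
Share of neighbouring peak pairs with at most the gap on the x axis (nt plus 1, log scale), for DHX9-Rb on the left and DHX9-mAb on the right, in PIP5K1A (solid), CERS5 (dashed) and the whole list (grey). The gene curves lie to the left of the list curves, with medians of 136 and 152 nt against 517 nt for DHX9-Rb.

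Most DHX9-Rb peaks of each gene formed a single run, with neighbours less than 1 kb apart. In PIP5K1A 67 of the 71 peaks ran from 151171871 to 151201542, over 29.7 kb. Among the 8373 runs of the DHX9-Rb list, single peaks included, this was the run with the second most peaks. The one with the most had 76. In CERS5 37 of the 39 peaks ran from 50541848 to 50559435, over 17.6 kb, which ranked 10 in the list.

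Wide gaps came at the 3′ end of the series. The largest gap in PIP5K1A, 5719 nt, separated the last DHX9-Rb peak from its neighbour (151203923 to 151204052). The largest in CERS5, 5690 nt, likewise lay before the last peak, after the one from 50539000 to 50539182. The next in CERS5 was 2665 nt. Within the long run of PIP5K1A, by definition, no gap reached 1 kb.

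The DHX9-mAb peaks were broken into blocks where the DHX9-Rb peaks ran on. Under the same 1 kb rule, DHX9-mAb had 5 runs in PIP5K1A, of 1, 12, 7, 9 and 5 peaks from the 5′ end. The run of 12 peaks reached from 3.16 to 8.19 kb, the run of 7 from 11.1 to 14.5 kb, the run of 9 from 18.6 to 22.9 kb and the run of 5 from 27.0 to 29.2 kb. In CERS5 there were 2 runs, of 11 peaks from 2.94 to 8.56 kb and of 9 peaks from 10.5 to 15.4 kb. Among the 3630 runs of the DHX9-mAb list, the longest had 21 peaks. The runs of 12 and 11 peaks shared ranks 32 and 38. DHX9-mAb is the sparser list, with 47.2% of its gaps under 1 kb against 61.4% for DHX9-Rb, so the same rule breaks it more readily.

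DHX9-Rb filled the stretches between these blocks with narrower peaks. The stretches without DHX9-mAb peaks in PIP5K1A were 2.9, 4.06 and 4.09 kb long between the large blocks, and they held 5, 8 and 10 DHX9-Rb peaks with median widths of 195, 146 and 224 nt. The DHX9-Rb peaks that touched the 4 large blocks numbered 13, 8, 10 and 5 and had median widths of 297, 387, 274 and 356 nt. In CERS5 the 1.97 kb between the blocks held 4 DHX9-Rb peaks with a median width of 179 nt. Those on the blocks numbered 12 and 10, with medians of 365 and 302 nt. The blocks are defined by DHX9-mAb, so that no DHX9-Rb peak between them can be shared. A wider DHX9-Rb peak also has more room to touch a block, so the widths are not independent of this division.

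The densest 5 kb of each list is named here, and among equally dense stretches the one nearest the 5′ end. The named stretch fell within the first 10 kb of the gene in all 4 cases. For DHX9-Rb, stretches further 3′ held as many peaks in both genes, so its named position rests on that choice. In PIP5K1A 13 DHX9-Rb peaks lay between 151171871 and 151176616, where they covered 3368 nt. The densest 5 kb of DHX9-mAb held 11 peaks from 151173583 to 151177976. In CERS5 12 DHX9-Rb peaks lay between 50551698 and 50556490 and covered 3420 nt, and 10 DHX9-mAb peaks lay between 50552726 and 50557555. The named stretches of the 2 antibodies overlapped in each gene. Equally dense DHX9-Rb stretches lay from 151193643 to 151198623 in PIP5K1A and from 50543134 to 50547831 in CERS5. Neither of those overlapped the named DHX9-mAb stretch of its gene.

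Nearly all DHX9-mAb peaks of both genes were also found with DHX9-Rb, while DHX9-mAb found about as many of the DHX9-Rb peaks as it missed. A peak counted as found by both when at least 1 nt overlapped on the same strand. In PIP5K1A 35 of 71 DHX9-Rb peaks had a DHX9-mAb partner, 49.3% (95% Wilson interval 38.0 to 60.7). In CERS5 20 of 39 had one, 51.3% (36.2 to 66.1). The share over all 21618 DHX9-Rb peaks was 28.6%. In the other direction, 33 of 34 DHX9-mAb peaks of PIP5K1A (97.1%, 85.1 to 99.5) and 19 of 20 of CERS5 (95%, 76.4 to 99.1) had a DHX9-Rb partner, against 88.0% of the 6831 peaks of that list. The intervals cover counting error only, and peaks of one transcript are not independent. The shares of the 2 genes lay within each other's intervals. Because the genes were picked from these lists, nothing is read from the difference to the list.

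Crowded peaks were shared more often in the rest of the lists as well. Outside both genes, 48.8% of the 2268 DHX9-Rb peaks with at least 15 same-strand neighbours within 5 kb had a DHX9-mAb partner (46.8 to 50.9), and 26.1% of the 19240 less crowded ones did (25.4 to 26.7). The DHX9-Rb peaks of PIP5K1A had a median of 20 such neighbours and those of CERS5 a median of 18, against 5 over the list. Of the peaks with at least 15, 34 of 62 in PIP5K1A (54.8%) and 19 of 30 in CERS5 (63.3%) had a partner. For DHX9-mAb the share was 94.7% of the 1375 peaks elsewhere with at least 8 neighbours, (93.4 to 95.8) and 86.2% of the 5402 less crowded ones (85.3 to 87.1). In the 2 genes it was 25 of 26 and 19 of 20 among peaks with at least 8. The limits of 15 and 8 neighbours are the lower of the genes' lower quartiles, and the comparison was chosen after the values were seen.

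The ratio of the lists was lower in these genes than over all peaks. DHX9-Rb had 2.09 peaks for each DHX9-mAb peak in PIP5K1A and 1.95 in CERS5, against 3.16 over the lists. In covered nucleotides the ratios were 2.2 in PIP5K1A, 2.11 in CERS5 and 3.35 over the lists. Of the nucleotides covered by either antibody, 39.4% were covered by both in PIP5K1A (7611 nt) and 35.2% in CERS5 (4184 nt). The common part made up 41.1% of the DHX9-Rb and 90.5% of the DHX9-mAb sequence of PIP5K1A, and 38.4% and 81.0% of that of CERS5.

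The share of DHX9-Rb peaks with a partner was lowest at the 3′ end of each series, with no steady fall before it. Over segments 1 to 4 of PIP5K1A it was 5 of 10, 8 of 13, 8 of 9 and 4 of 12. In CERS5 it was 1 of 4 in segment 1 and 8 of 9 in segment 2. In PIP5K1A 13 of 23 DHX9-Rb peaks in the first 20% of the gene, 12 of 21 in the next 20% and 10 of 22 in the third 20% had a partner, and 0 of 5 further on. In CERS5 9 of 13, 10 of 15 and then 1 of 10 had one, and 0 of 1 further on. DHX9-mAb had 1 peak in the third 20% of CERS5 and 0 further on in both genes, so few or no partners were possible there. The last 10 DHX9-Rb peaks of CERS5 formed the longest row without a partner in that gene, from 50545268 down to 50533107. The longest row without a partner in PIP5K1A also held 10 peaks, but lay in the middle of the series, from 151193643 to 151197368. It coincided with the largest DHX9-mAb gap, of 4095 nt. The longest row of DHX9-Rb peaks that all had a partner held 11 peaks in PIP5K1A (151174161 to 151178867) and 9 in CERS5 (50554131 to 50558414).

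Only 1 DHX9-mAb peak in each gene lacked a partner. In PIP5K1A this was the narrowest DHX9-mAb peak of the gene, 86 nt wide, from 151177891 to 151177976. A stretch of 87 nt separated it from the nearest DHX9-Rb peak. In CERS5 it was 215 nt wide, from 50547978 to 50548192, with 146 nt to the nearest DHX9-Rb peak. Both lay beside a DHX9-Rb peak, which the close spacing of the DHX9-Rb peaks makes likely by itself. Unpartnered DHX9-Rb peaks lay a median of 931 nt from the nearest DHX9-mAb peak in PIP5K1A (16 to 10116 nt, 36 peaks). In CERS5 the median was 927 nt (65 to 12542 nt, 19 peaks). DHX9-mAb had fewer peaks with wider gaps, which lengthens these distances by itself, so nothing is read from the contrast.

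Peaks marked by both antibodies were wider than those marked by DHX9-Rb alone. In PIP5K1A the median width was 300 nt for shared DHX9-Rb peaks (interquartile range 212 to 415) and 189.5 nt for the others (137 to 226). In CERS5 it was 340 nt (252 to 421) and 195 nt (164 to 248). All 12 DHX9-Rb peaks of at least 400 nt in PIP5K1A and all 6 in CERS5 were shared. The whole list held 1660 DHX9-Rb peaks of that width. How many of those were shared was not counted, so this is not shown to be particular to the genes. A wider peak has more room to overlap another, and the medians over the whole DHX9-Rb list were 243 nt for shared and 190 nt for other peaks.

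Shared or not, the PIP5K1A peaks had median widths of 221 nt for DHX9-Rb and 208 nt for DHX9-mAb, and the CERS5 peaks 249 and 230 nt. The lists had medians of 201 nt for DHX9-Rb and 191 nt for DHX9-mAb. The widest DHX9-Rb peak of PIP5K1A (151198649 to 151199326) spanned 678 nt and lay 28.2 kb from the 5′ end, near the 3′ limit of the DHX9-mAb signal. The widest of CERS5 (50557750 to 50558414) spanned 665 nt and lay at 2.87 kb, near its 5′ limit. With DHX9-mAb the widest were 426 nt in PIP5K1A (151175757 to 151176182) and 483 nt in CERS5 (50555808 to 50556290), each touching 2 DHX9-Rb peaks.

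**Figure D4:**
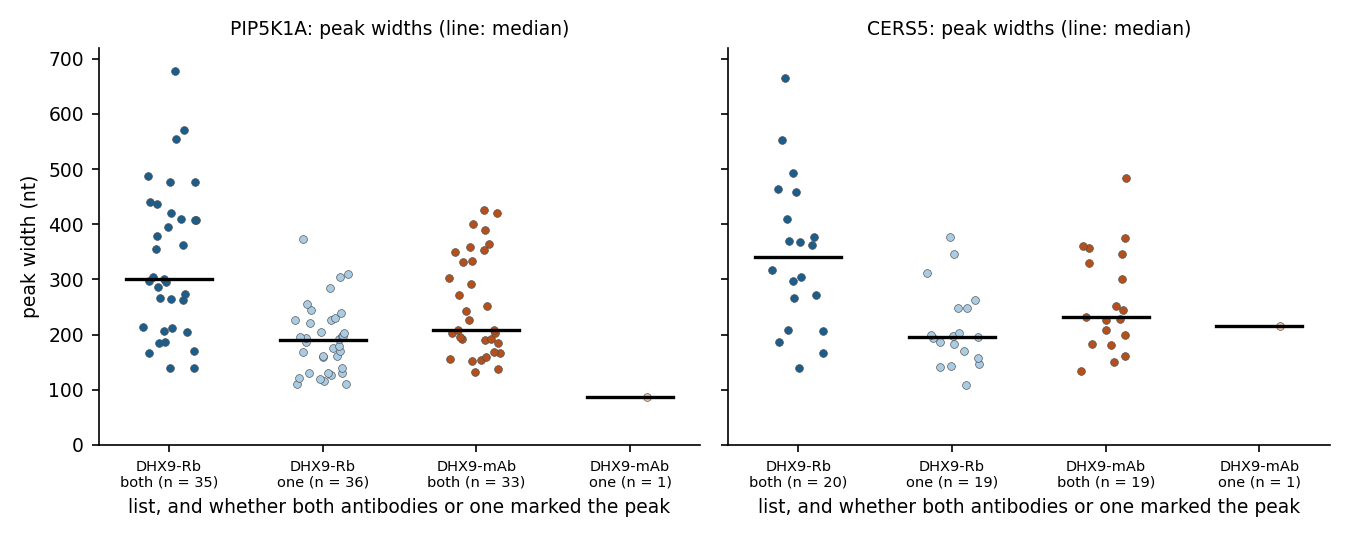
Width in nt of each peak in PIP5K1A and CERS5, by list and by whether both antibodies or one marked it; each point is a peak and the line is the median. Shared DHX9-Rb peaks have medians of 300 nt in PIP5K1A and 340 nt in CERS5, and DHX9-Rb peaks without a partner 189.5 and 195 nt.

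Matched peaks overlap by definition, so their midpoints could only lie closer together than the mean of their 2 widths. The shared part of a pair varied widely. PIP5K1A had 40 overlapping pairs and CERS5 had 23, of which 22 and 11 joined 1 peak of each list with no further partner. The DHX9-mAb peak lay wholly inside the DHX9-Rb peak in 11 pairs of PIP5K1A and 10 of CERS5, and the reverse held in 2 pairs of each gene. When each DHX9-mAb peak was matched to the partner with which it shared the largest part, the midpoints were a median of 47.5 nt apart in PIP5K1A (interquartile range 26 to 128, 33 peaks) and 55 nt in CERS5 (15.5 to 90, 19 peaks). They were at most 50 nt apart for 18 and 9 peaks, and never more than 215 and 202 nt.

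Over all overlapping pairs, the median part of the combined nucleotides held in common was 54.9% in PIP5K1A and 54.4% in CERS5, and the pairs ranged from 4.11% to 90.7% in PIP5K1A and from 0.496% to 80.6% in CERS5.

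The offset had no common direction. The DHX9-Rb midpoint lay 5′ of the DHX9-mAb midpoint in 16 matches of PIP5K1A and 3′ of it in 17. In CERS5 it lay 5′ in 12 and 3′ in 7.

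The closest match in PIP5K1A joined the DHX9-Rb peak from 151198268 to 151198623 with the DHX9-mAb peak from 151198281 to 151198645, with 90.7% of their combined nucleotides in common. Next came 151192339 to 151192478 with 151192333 to 151192470 (90.4%), and 151197945 to 151198084 with 151197929 to 151198082 (88.5%). The first and the third of these lay side by side in the last DHX9-mAb block. In CERS5 the closest was the DHX9-Rb peak from 50547646 to 50547831 with the DHX9-mAb peak from 50547648 to 50547797 (80.6%). It was followed by 50554429 to 50554805 with 50554397 to 50554753 (79.5%), and by 50550468 to 50550785 with 50550504 to 50550755 (79.2%).

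Some peaks of one list spanned several of the other. A DHX9-Rb peak of PIP5K1A (151175401 to 151175876) overlapped 3 DHX9-mAb peaks, the most in either gene, and 3 others overlapped 2. Of the DHX9-mAb peaks, 7 in PIP5K1A and 4 in CERS5 overlapped 2 DHX9-Rb peaks. In CERS5 3 DHX9-Rb peaks overlapped 2 DHX9-mAb peaks. Over the lists, 2.66% of the DHX9-Rb and 10.9% of the DHX9-mAb peaks overlapped at least 2 peaks of the other list. The genes were chosen for many peaks, so nothing is read from the difference to the lists.

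**Figure D5:**
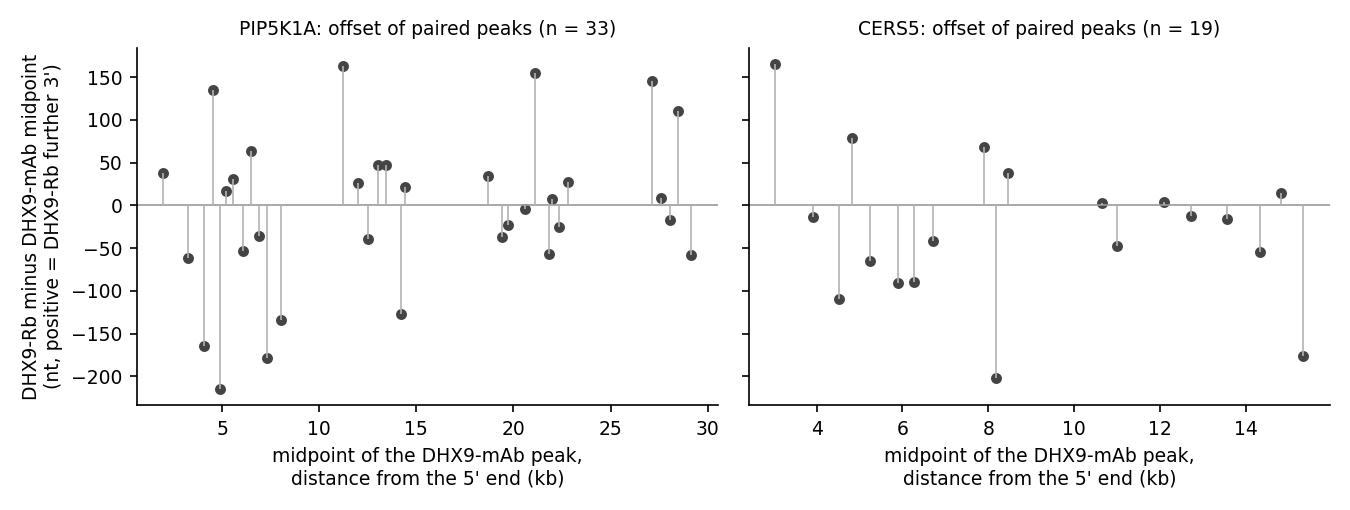
Offset in nt between the midpoints of each DHX9-mAb peak and its best DHX9-Rb partner (DHX9-Rb minus DHX9-mAb, positive where DHX9-Rb lies further 3′), against the distance of the DHX9-mAb peak from the 5′ end in kb. Points scatter on both sides of 0, with a largest offset of 215 nt among 33 matches in PIP5K1A and 202 nt among 19 in CERS5.

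The gene intervals set the members apart from other peaks without a close call. The nearest same-strand peaks beyond PIP5K1A lay 76.1 kb upstream and 5.78 kb downstream with DHX9-Rb, and 112 and 5.71 kb away with DHX9-mAb. Beyond CERS5 they lay 23.3 kb upstream and 114 kb downstream with DHX9-Rb, and 840.1 and 118 kb away with DHX9-mAb. Of all peaks on chromosome 1, PIP5K1A held 2.42% of the 2934 from DHX9-Rb and 3.38% of the 1007 from DHX9-mAb. Of those on chromosome 12, CERS5 held 2.49% of 1566 and 3.88% of 515.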

How the data were processed

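FLASH libraries of HEK293 cells were analysed through the 2 peak lists the authors deposited. The deposited values are positions, the first and last base of each region with its strand, and the authors' score column held 0 cells with a number. Per the submitters' processing notes, reads were aligned with Bowtie2 2.2.6 and the assembly was hg19; per the file headers' second column, peaks came from PEAKachu. The sources used here do not give its settings, its control, how replicates were combined or how reads from repeats were treated, and the last could change which peaks were called.

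Both replicates of an antibody name the same list in their labels, which gave its antibody. Peaks were assigned to a gene by an overlap of at least 1 nt on its strand. Gaps ran from the end of a peak to the start of the next, and intervals are Wilson intervals. Depth is unknown. The interval functions were tested on simulated data (1981 of 1981 planted overlaps recovered among 5000 peaks). The members, the rule for naming peaks (first, last, widest, largest gaps, densest 5 kb, closest 3 pairs, longest rows, unpartnered DHX9-mAb peaks) and the comparisons were chosen with earlier results of these data known. Counts in other phosphoinositide and ceramide genes, and peak sequences, would need hg19 annotation or sequence and are not given. Python 3.11.15, NumPy 2.4.6, pandas 2.3.3, SciPy 1.17.1 and matplotlib 3.10.9 were used.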

Additional observations from a re-analysis of the deposited data

How the results depend on the processing

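Of 48 recomputed values, 38 kept within the interval or the 1.5-fold range set for them and 0 turned round. The numbers of peaks and their median positions were among those 38 under every alternative run; with the peaks less than 50 nt apart merged, 53 DHX9-Rb and 30 DHX9-mAb peaks were counted in PIP5K1A, 30 and 16 in CERS5. When a pair had to share at least 50% of both peaks, the shares fell to 35.2% of DHX9-Rb and 73.5% of DHX9-mAb peaks in PIP5K1A, and 33.3% and 65% in CERS5, against 19.6% and 62.1% over the lists. With 50% of the peak's own length required, 35.9% of the DHX9-Rb peaks of CERS5 had a partner, against 21.9% of the list. With the midpoint required inside a peak of the other list, the DHX9-mAb shares were 94.1% in PIP5K1A and 80% in CERS5. The list then had 79.9%, level with CERS5. For DHX9-Rb the shares were 39.4% in PIP5K1A and 41.0% in CERS5, against 23.3% of the list. Merging brought the DHX9-mAb share to 100% in PIP5K1A and 93.8% in CERS5, against 87.7% of the list, and the median DHX9-Rb gap of PIP5K1A to 184 nt. Measured between midpoints, which adds the peak widths, the median spacing was 420 nt (DHX9-Rb) and 482 nt (DHX9-mAb) in PIP5K1A and 458 nt (DHX9-Rb) and 490 nt (DHX9-mAb) in CERS5; the last lay within the wide interval of the median of 19 gaps and counts among the 38. No paired analysis was possible because each list stands for both replicates, and for the same reason no replicate could be left out. Without read depth, a missing peak shows only that none passed the caller's threshold.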

Other observations

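Downstream of PIP5K1A, a further group of plus-strand peaks began 5.78 kb beyond the gene interval with DHX9-Rb, where 7 peaks lay between 151227794 and 151233620, and 5.71 kb beyond it with DHX9-mAb, where 2 peaks lay between 151227725 and 151232999. In the GENCODE annotation of GRCh38 the next gene downstream on that strand is PSMD4, which encodes a subunit of the proteasome; whether these hg19 peaks lie in it was not determined. Within 20 kb upstream of PIP5K1A, DHX9-Rb had 1 peak, on the opposite strand (151155581 to 151155714), and DHX9-mAb had 0. Within 20 kb on either side of CERS5 neither list had a peak on either strand.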
